A study of Mus musculus with 10 samples.

Results

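Transcripts of 10 genes that make, break down, export or carry sphingosine 1-phosphate (S1P) were followed in the hearts of 10 male mice, 5 S1Pless animals and 5 littermate controls. The genes were chosen by name: the kinases Sphk1 and Sphk2, the lyase Sgpl1, the phosphatases Sgpp1, Plpp1, Plpp2 and Plpp3, the exporters Spns2 and Mfsd2a, and the plasma carrier Apom. All 10 have a row among the 15341 genes of the count table. The S1Pless mice had the genotype Sphk1f/-:Sphk2f/-:Mx1Cre+ and the controls Sphk1f/-:Sphk2f/-:Mx1Cre-. Both groups thus carried a floxed and a null allele of each kinase gene, and no heart came from an animal with intact kinase alleles. Mx1Cre is a Cre recombinase driven by the interferon-inducible Mx1 promoter, which acts in blood-forming cells and in some cells of other tissues. Neither ages nor any agent given to induce the recombinase are stated in the labels. The design sets animals named for a lack of plasma S1P against their controls.

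S1P is made when a sphingosine kinase adds a phosphate to sphingosine, the backbone that ceramidases release from ceramide. It leaves cells through dedicated exporters, travels in plasma on albumin and on apolipoprotein M of high-density lipoprotein, and acts on receptors of endothelium, heart muscle and leukocytes. Phosphatases return it to sphingosine, and the lyase cleaves it irreversibly. Red blood cells and endothelium are known as main sources of plasma S1P.

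The libraries held 16354071 to 20832566 counts in S1Pless hearts and 17204491 to 20202283 in controls. Levels are given in CPM, which sets each count against the library total after adjustment by its TMM factor, and each read stood for 0.0451 to 0.058 CPM in S1Pless libraries and 0.0532 to 0.0658 CPM in controls. The heart muscle myosin gene Myh6, a check of the tissue label, had 14081 to 20377 CPM in S1Pless hearts and 17053 to 21482 CPM in controls. In whole-heart RNA, fewer cells of a type and less RNA per cell cannot be told apart.

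None of the members passed the test between the groups, and their levels in the heart differed widely. Per kilobase of exon, the broad lipid phosphate phosphatases Plpp1 and Plpp3 were highest, with 33 and 30.2 CPM per kilobase over all 10 hearts. They stood at or above 93% and 92.4% of tested genes. Plpp1 was above Plpp3 in 6 of the 10 hearts, so these neighbours in the order could not be separated, and with lengths from the longest transcript it was above in 9. A middle group followed with the S1P phosphatase Sgpp1 at 5.61, the exporter Spns2 at 4.97, the lyase Sgpl1 at 4.59 and the kinase Sphk2 at 4.45 CPM per kilobase. Neighbours among these 4 genes overlapped as well, while Plpp3 exceeded Sgpp1 in all 10 hearts, by 5.38-fold on average. With lengths from the longest transcript that ratio was 3.17, and Sgpp1, at 9.53 CPM per kilobase, lay above its next neighbour Sgpl1, at 6.47, in all 10 hearts. Plpp2 lay 3.89-fold below Sphk2, at 1.15 CPM per kilobase, and Sphk1 a further 5.65-fold below that, at 0.203 CPM per kilobase, and both steps held in all 10 hearts. Sphk2 therefore supplied 96.4 ± 0.968% of the summed kinase level per kilobase in S1Pless hearts and 95 ± 1.7% in controls (SD, n = 5 each). Apom and Mfsd2a, at 0.0407 and 0.00709 CPM per kilobase, rested on 8 and 3 reads in all 10 libraries together.

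**Figure D1:**
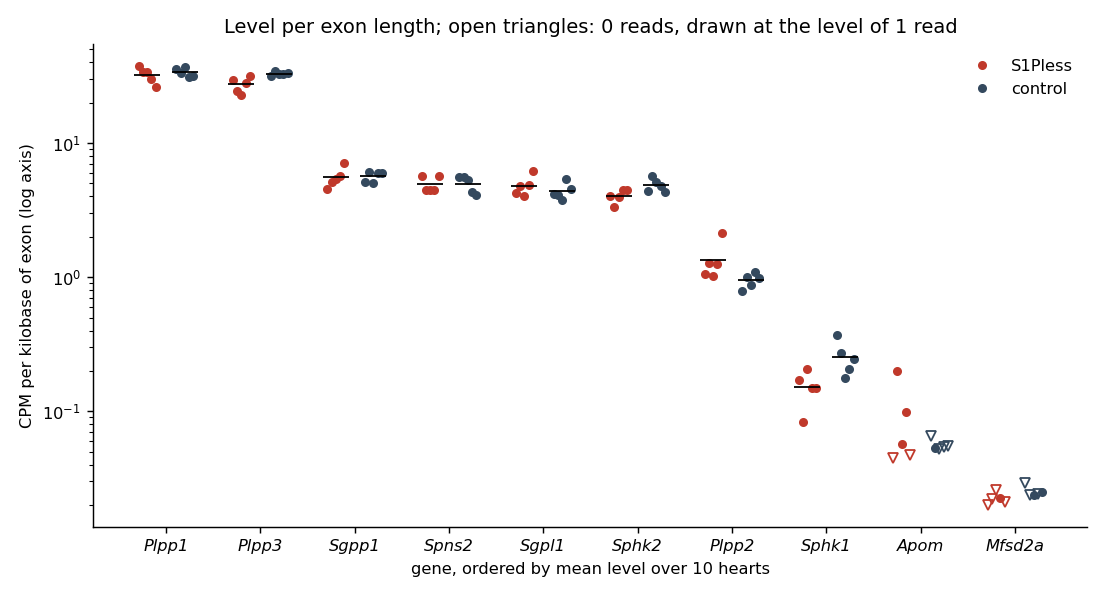
Level of each gene in CPM per kilobase of annotated exon (log axis), with a point for each heart, S1Pless left of control, and a bar at the group mean where all 5 hearts had reads. Open triangles are hearts with 0 reads, drawn at the level of a single read. Plpp1 and Plpp3 lie above the 4 genes of the middle group, and Sphk1 lies below Plpp2 in every heart.

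The start regions of 3 genes with lower mean levels in S1Pless hearts, Sphk1, Sphk2 and Plpp3, are shown with that of Spns2, whose level was nearly the same in both groups. Each is a RefSeq window on build GRCm38.p6, 250 bases before to 50 after an annotated start, read 5′ to 3′ on the gene's strand. Capitals mark a TATA box (TATAAA) or a GC box (GGGCGG), searched on both strands, with no overlap between matches of different motifs. The windows are Sphk1 at chr11:116530850-116531149 (plus strand, the first of 5 starts), Sphk2 at chr7:45715158-45715457 (minus strand, the second of 2 starts), Plpp3 at chr4:105157097-105157396 (plus strand) and Spns2 at chr11:72474978-72475277 (minus strand).
Sphk1: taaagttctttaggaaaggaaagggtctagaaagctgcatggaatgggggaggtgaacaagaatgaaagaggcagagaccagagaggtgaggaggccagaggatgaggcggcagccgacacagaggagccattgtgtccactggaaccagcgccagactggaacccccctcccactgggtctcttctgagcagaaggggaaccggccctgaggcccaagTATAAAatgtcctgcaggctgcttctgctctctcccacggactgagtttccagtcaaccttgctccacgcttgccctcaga
Sphk2: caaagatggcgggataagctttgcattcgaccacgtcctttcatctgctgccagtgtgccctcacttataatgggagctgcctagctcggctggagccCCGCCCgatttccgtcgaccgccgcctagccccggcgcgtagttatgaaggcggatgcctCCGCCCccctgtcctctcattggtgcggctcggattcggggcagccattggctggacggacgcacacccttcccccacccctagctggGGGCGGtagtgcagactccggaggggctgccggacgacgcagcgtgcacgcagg
Plpp3: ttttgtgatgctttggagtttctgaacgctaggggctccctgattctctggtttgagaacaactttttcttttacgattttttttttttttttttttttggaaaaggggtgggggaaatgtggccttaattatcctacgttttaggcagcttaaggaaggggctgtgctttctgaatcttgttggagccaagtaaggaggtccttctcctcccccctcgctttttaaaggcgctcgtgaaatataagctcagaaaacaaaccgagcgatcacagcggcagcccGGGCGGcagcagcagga
Spns2: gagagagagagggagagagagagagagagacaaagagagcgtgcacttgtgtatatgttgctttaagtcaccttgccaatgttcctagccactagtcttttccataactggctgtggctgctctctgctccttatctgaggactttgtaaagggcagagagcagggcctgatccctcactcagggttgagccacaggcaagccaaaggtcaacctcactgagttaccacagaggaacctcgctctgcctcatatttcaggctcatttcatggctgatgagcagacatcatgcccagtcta

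RefSeq windows were matched for 9 of the 10 members, all but Plpp1, with 14 windows in all. The Sphk1 window above holds the only TATA box of the set, a motif found in 13.6% of all 32851 RefSeq windows. GC boxes were found in 5 of the 14 windows, belonging to Sphk2 (both starts), Sgpl1, Plpp2 and Plpp3, against 35.7% of all windows. The 4 copies in the Sgpl1 window were the most in the set, and the Sphk2 window above held 3. The median ratio of observed to expected CpG was 0.38 over all windows. It was lower in the Spns2 window, at 0.11, and in the Sphk1 window above, at 0.26. The Sphk2 window above had 0.85, the Plpp3 window 0.71, and the other starts of Sphk1 0.68 to 0.85. Among the genes with almost no reads, Mfsd2a had 0.85 and Apom 0.42. The interferon-gamma activated sequence (GAS, TTCNNNGAA, both strands), sought because the recombinase is under an interferon-inducible promoter, was found in 2 of the 14 windows, overlapping windows of Sphk1, against 8.3% of all windows. Of 8 interferon-induced genes, each tested singly, 3 were called higher. The 8 summed to 174 to 333 CPM in S1Pless hearts and 132 to 160.4 CPM in controls, and their part in the Sphk1 values was not tested. These matches describe letters in the windows and no binding was measured.

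Across the 8 members with enough reads to test, none was called by edgeR's quasi-likelihood test at an adjusted p below 0.05, with adjusted p-values from 0.144 to 0.981. Over all 12992 tested genes 3.72% were called, 3.4% higher and 0.316% lower in S1Pless hearts. At an unadjusted p below 0.05 the count was 4 of 8 members, Sphk1, Sphk2, Plpp2 and Plpp3, where 19.9% of all tested genes had such a p. That count was 1, Plpp2, with library totals alone and 2, Sphk1 and Plpp3, with a block of neighbouring title numbers. Control replicates 3 and 4 formed a block with no S1Pless heart. The block fit thus took its group difference from the remaining controls only. With a heart left out the count ran from 1 (without S1Pless replicate 2) to 4. It was 2 without S1Pless replicate 3, control replicate 1 or control replicate 2. DESeq2 called 1 of the 8, Plpp3, and limma-voom 0. In none of the 8 did the groups fail to overlap, as they did in 6.35% of tested genes. The median log2 fold change of the members was -0.04, against -0.01 for all tested genes. With the series of the title number (38 or 44, of unstated meaning) as a covariate, the 4 members had log2 fold changes of -0.73 (Sphk1), -0.28 (Sphk2), 0.4 (Plpp2) and -0.3 (Plpp3), and the unadjusted p of Plpp2 was 0.0942.

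**Figure D2:**
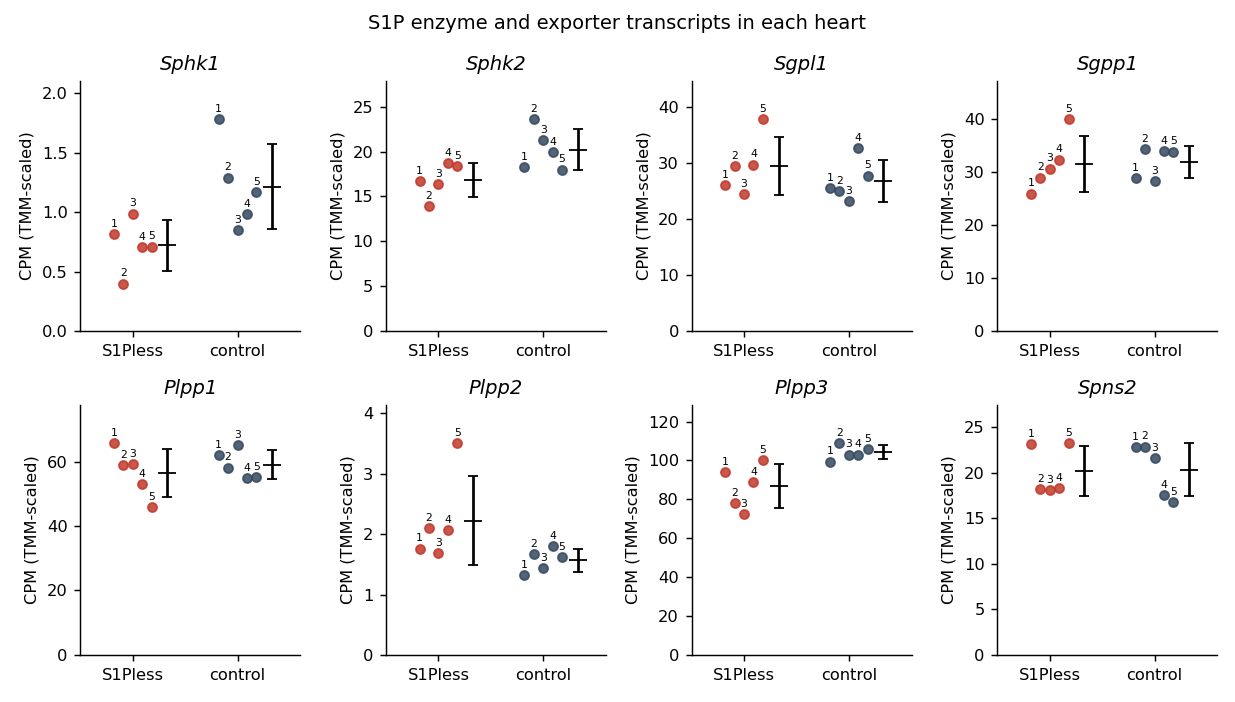
CPM of the 8 tested members in each heart, S1Pless left of control, numbered by replicate, with the group mean and SD beside the points (n = 5 each) and every axis starting at 0. S1Pless replicate 5 is the highest heart for Sgpl1, Sgpp1 and Plpp2 and the lowest for Plpp1, and 4 of 5 S1Pless hearts lie below all controls for Plpp3.

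The kinases lie at the start of the pathway and are the genes the alleles target. Sphk1 (ENSMUSG00000061878) encodes a mainly cytosolic kinase that moves to the plasma membrane on stimulation. Its reads numbered 18, 8, 17, 14 and 15 in S1Pless replicates 1 to 5, or 0.812, 0.4, 0.987, 0.706 and 0.711 CPM. In control replicates 1 to 5 there were 27, 24, 16, 18 and 21 reads, or 1.78, 1.29, 0.852, 0.98 and 1.17 CPM. In CPM, 4 of the S1Pless hearts lay below all controls, and S1Pless replicate 3 lay inside the control range. In reads, S1Pless replicate 1, with 18, was above control replicate 3, with 16, so its place below the controls depends on library scaling. The log2 fold change was -0.74 ± 0.28 (SE), with a 95% interval of -1.29 to -0.18 and an adjusted p of 0.168 in edgeR's test. With library totals in place of TMM factors it was -0.59 (edgeR adjusted p = 0.215).

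Sphk2 (ENSMUSG00000057342) encodes the kinase found largely in the nucleus, endoplasmic reticulum and mitochondria. It had 16.7, 13.9, 16.4, 18.7 and 18.4 CPM in S1Pless replicates 1 to 5. The controls had 18.3, 23.6, 21.3, 19.9 and 18 CPM. The groups met between 18 and 18.7 CPM, and 3 S1Pless hearts lay below all controls. Means were 16.8 ± 1.94 CPM in S1Pless hearts and 20.2 ± 2.3 CPM in controls (SD, n = 5 each), a log2 fold change of -0.27 ± 0.11 (SE) with a 95% interval of -0.47 to -0.06 (edgeR adjusted p = 0.18). With library totals in place of TMM factors, which moved the median of all genes by 0.136, the value was -0.13. Reads of Sphk1 and Sphk2 were present in every heart of both groups. Gene-level counts do not tell transcripts of the null, the excised and the intact floxed alleles apart, so these values are only a partial check of the genotype labels.

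Exons of Sphk2 overlap those of Dbp, a clock-controlled transcription factor gene, over 13% of their length, and those of the ribosomal protein gene Rpl18 over 8.97%, both on the opposite strand in GENCODE M21. The strand setting of the counting is not given in any source used, so part of the Sphk2 count is uncertain. Dbp ranged from 44.8 to 126 CPM in S1Pless hearts and from 44.8 to 121 CPM in controls. Rpl18 ranged from 87.7 to 118 CPM in S1Pless hearts and from 90.2 to 133 CPM in controls. Neither gene was called (edgeR adjusted p = 0.875 and 0.914), and their part in the Sphk2 values was not tested.

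The lyase gene Sgpl1 (ENSMUSG00000020097), whose product splits S1P in the endoplasmic reticulum into a fatty aldehyde and phosphoethanolamine, had a slightly higher mean in S1Pless hearts. Its levels were 26.1, 29.5, 24.5, 29.8 and 37.9 CPM in S1Pless replicates 1 to 5. Controls had 25.6, 25, 23.2, 32.8 and 27.8 CPM. A single S1Pless heart, replicate 5, exceeded all controls. The log2 fold change was 0.14 ± 0.12 (SE, 95% interval -0.11 to 0.38, edgeR adjusted p = 0.575), and without S1Pless replicate 5 it was 0.02.

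Setting the lyase against the main kinase within each library removes the scaling factors. There were 1.56, 2.13, 1.5, 1.59 and 2.05 Sgpl1 reads per Sphk2 read in S1Pless replicates 1 to 5. In controls there were 1.4, 1.06, 1.09, 1.65 and 1.54. S1Pless replicates 2 and 5 lay above every control, and the other 3 lay between the controls at 1.4 and 1.65. Means were 1.77 ± 0.299 in S1Pless hearts and 1.35 ± 0.265 in controls (SD, n = 5 each). This ratio was chosen after the values were seen and carries no test.

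Among the phosphatases, Plpp3 (ENSMUSG00000028517) had the smallest p-value of all members. Its product is a surface enzyme of endothelium and other cells that dephosphorylates lysophosphatidic acid as well as S1P. Plpp3 had 93.9, 77.9, 72.4, 89 and 100.1 CPM in S1Pless replicates 1 to 5. The controls were close together, at 99.4, 109, 103, 103 and 106 CPM. Only S1Pless replicate 5 reached the lowest control, and the SD was 11.4 CPM in S1Pless hearts and 3.63 CPM in controls.

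For Plpp3 the log2 fold change was -0.26 ± 0.1 (SE), with a 95% interval of -0.45 to -0.08 and an adjusted p of 0.144 in edgeR's test. DESeq2 gave -0.28 and an adjusted p of 0.0443. Over the 19 alternative fits the log2 fold change stayed between -0.33 and -0.13 and the adjusted p ran from 0.0443 to 0.564, the highest and the value of -0.13 with library totals alone. Endothelial markers did not run the same way: 8 of 8 were tested, 1 was called higher, and their sum was 1076 to 1284 CPM in S1Pless hearts and 1008 to 1149 CPM in controls. Fibroblast markers did not either: 1 of 7 was called higher. They summed to 950 to 1212 CPM in S1Pless hearts and 738 to 1063 CPM in controls. Heart muscle markers did run the same way, though none of 8 was called. Their sum was 51589 to 61089 CPM in S1Pless hearts and 63270 to 70153 CPM in controls. Within the S1Pless group, replicate 5 had the lowest heart muscle sum, 51589 CPM, and the highest Plpp3 level, 100.1 CPM. The order of the other S1Pless hearts was not compared. Of 5 smooth muscle markers none was called either, with a median log2 fold change of -0.25 and a sum of 462 to 590.1 CPM in S1Pless hearts and 485 to 728 CPM in controls. The part of these cell types in the Plpp3 difference was not tested.

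Plpp2 (ENSMUSG00000052151), which encodes a related phosphatase, was the member with the largest positive difference. Its levels were 1.76, 2.1, 1.68, 2.07 and 3.51 CPM in S1Pless replicates 1 to 5, from 29 to 74 reads. Control levels were 1.32, 1.67, 1.44, 1.8 and 1.62 CPM, from 20 to 33 reads. Of the S1Pless hearts 3 lay above all controls, with replicate 5 far above the others. The log2 fold change was 0.5 ± 0.23 (SE, 95% interval 0.06 to 0.95, edgeR adjusted p = 0.236), and without S1Pless replicate 5 it was 0.27 with an adjusted p of 0.533.

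Plpp1 (ENSMUSG00000021759), the third broad phosphatase, had 65.8, 58.8, 59.3, 52.9 and 45.8 CPM in S1Pless replicates 1 to 5. The controls had 62, 58.1, 65.2, 54.8 and 55.3 CPM. S1Pless hearts extended beyond the controls on both sides. Its log2 fold change was -0.06 ± 0.1 (SE, 95% interval -0.26 to 0.13, edgeR adjusted p = 0.77), and with library totals alone it was 0.07. Exons of Mtrex, an RNA helicase gene on the opposite strand, overlap 25.8% of the Plpp1 exon length. As the strand setting of the counting is not given, part of the Plpp1 count is uncertain, as for Sphk2. This limit also covers the place of Plpp1 in the order of levels, its phosphatase share and its correlations. Mtrex had 36.4 ± 2.72 CPM in S1Pless hearts and 39.1 ± 2.06 CPM in controls (SD, n = 5 each).

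Sgpp1 (ENSMUSG00000021054), the S1P-specific phosphatase of the endoplasmic reticulum, had 25.9, 28.9, 30.6, 32.3 and 39.9 CPM in S1Pless replicates 1 to 5. In controls the levels were 28.8, 34.3, 28.3, 33.9 and 33.8 CPM. The S1Pless hearts included both the lowest and the highest value of all 10. Its log2 fold change of -0.02 ± 0.11 (SE, 95% interval -0.24 to 0.21, edgeR adjusted p = 0.959) changed sign between settings, up to 0.12 with library totals alone.

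Together the phosphatases kept Plpp1 and Plpp3 as the 2 main transcripts in every heart. Plpp3 made up 41.1 ± 4.32% of the summed phosphatase level per kilobase in S1Pless hearts and 45 ± 1.66% in controls, and Plpp1 made up 48.5 ± 5.96% in S1Pless hearts and 46 ± 2.63% in controls (SD, n = 5 each). Plpp3 was the larger of the pair in S1Pless replicate 5, at 47.3% against 39% for Plpp1, and in control replicates 2, 4 and 5. Plpp1 was the larger in S1Pless replicates 1 to 4, with 46.2 to 53.6%, and in control replicates 1 and 3, with 48.7 and 49.1%. Sgpp1 contributed 6.27 to 10.5% in S1Pless hearts and 6.6 to 8.46% in controls, and Plpp2 contributed 1.46 to 3.16% in S1Pless hearts and 1.09 to 1.53% in controls. With lengths from the longest transcript the Sgpp1 share was 9.77 to 16.1% in S1Pless hearts and 10.3 to 13% in controls, and Plpp1 was above Plpp3 in 9 of the 10 hearts.

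**Figure D3:**
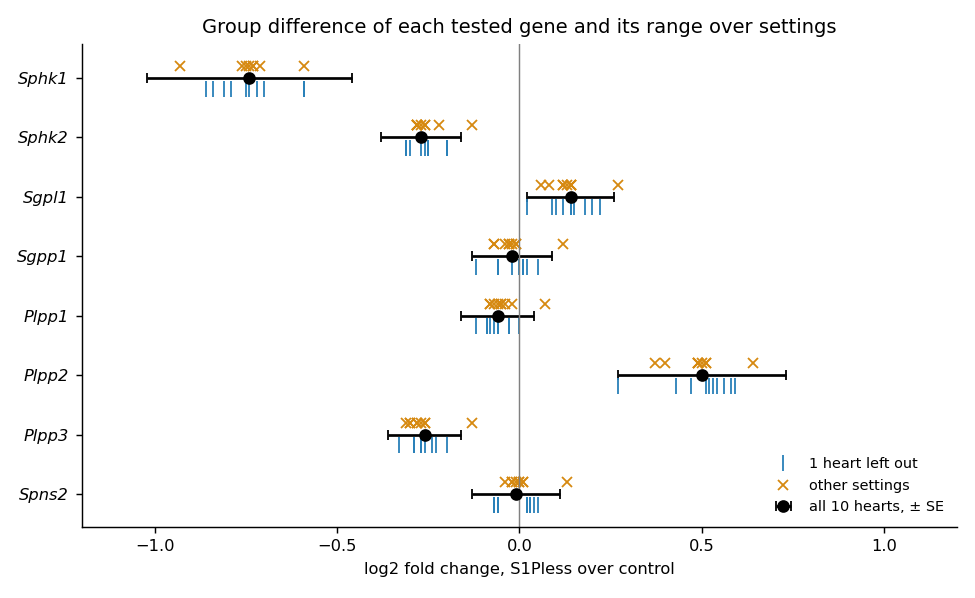
Log2 fold change of S1Pless over control for the 8 tested members: black points with SE bars for all 10 hearts, blue ticks for fits with 1 heart left out, and orange crosses for the other settings. Sphk1, Sphk2 and Plpp3 stay below 0 and Sgpl1 and Plpp2 above 0 in every fit, while Sgpp1, Plpp1 and Spns2 lie on both sides of 0.

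The exporter Spns2 (ENSMUSG00000040447) releases S1P from endothelial cells, in lymphatic vessels in particular. Its levels were 23.2, 18.2, 18.1, 18.3 and 23.3 CPM in S1Pless replicates 1 to 5. Controls had 22.8, 22.9, 21.6, 17.6 and 16.8 CPM. Both groups held hearts near 18 and hearts near 23 CPM, in an overlapping mix. Means were 20.2 ± 2.78 CPM in S1Pless hearts and 20.3 ± 2.9 CPM in controls (SD, n = 5 each). The log2 fold change of -0.01 ± 0.12 (SE, edgeR adjusted p = 0.981) changed sign between settings, and its 95% interval was -0.24 to 0.22.

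Beside Spns2, all 7 lymphatic endothelial markers were tested and 4 were called higher, with a sum of 161 to 209 CPM in S1Pless hearts and 130 to 171 CPM in controls. Whether these markers and Spns2 are linked in these hearts was not tested. Exons of Mybbp1a on the opposite strand overlap 3.21% of the Spns2 exon length.

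Mfsd2a and Apom were near absent. Mfsd2a (ENSMUSG00000028655) encodes a lysophospholipid transporter of the blood-brain barrier that has also been linked to S1P export there. A single read was counted in S1Pless replicate 4 and none in the other S1Pless hearts. Control replicates 3 and 5 had 1 read each and the other controls none. A count of 0 allows up to 3 reads, which is 0.135 to 0.174 CPM in S1Pless libraries and 0.16 to 0.197 CPM in controls, by counting error only.

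Apom (ENSMUSG00000024391), made mainly by liver and kidney, had 0, 4, 1, 2 and 0 reads in S1Pless replicates 1 to 5, at most 0.2 CPM. Among controls, replicate 2 had 1 read and the others none. S1Pless replicate 2 alone held 4 of the 8 reads. No difference was detectable at this depth, and no fold is given for either gene. Of 5 liver markers, 2 have a row, and neither had enough reads to test. Alb, which encodes albumin, the other plasma carrier of S1P, had 0 reads in all 10 libraries. Apoa2, which encodes a protein of high-density lipoprotein, had reads in every heart, 8 to 9 in S1Pless hearts and 5 to 17 in controls.

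S1Pless replicate 5 carried the highest level of Sgpl1, Sgpp1 and Plpp2 of all 10 hearts and the lowest of Plpp1. In the same heart the 8 macrophage markers summed to 547 CPM, against 242 to 296 CPM in the other S1Pless hearts and 149 to 194 CPM in controls. All 8 were tested and 3 were called higher. Some other marker sums of this heart were also the highest of the S1Pless group: 1212 CPM for fibroblasts, against at most 1072 CPM in the other S1Pless hearts, 1678 CPM against at most 1585 CPM for pericytes, and 18.3 CPM against at most 12.8 CPM for platelets. Others were not: 1157 CPM against up to 1284 CPM for endothelium, 188 against 209 CPM for lymphatic endothelium, and 476 against 590.1 CPM for smooth muscle. The same held for lymphocytes (3.32 against 6.86 CPM), red cells (106 against 172 CPM) and interferon-induced genes (268 against 333 CPM). Its sum of heart muscle markers, 51589 CPM, was the lowest of all hearts. The part of these cell types in the values of Sgpl1, Sgpp1, Plpp2 and Plpp1 was not tested.

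Over the 10 hearts, log2 levels of Plpp1 and Sgpp1 ran in opposite directions. Pearson's r was -0.92 (permutation p = 0.0002, adjusted p = 0.0056 over 28 member pairs) and Spearman's rho was -0.88 (permutation p = 0.00156, adjusted p = 0.0437). With group means removed r was -0.96, without S1Pless replicate 5 it was -0.84, and without the 2 hearts farthest from the median Sgpp1 level it was -0.77. Among the 7 hearts whose title number begins with 38 it was -0.87, and the other 3 are too few for a value. Of 12991 tested genes, 8, Sgpp1 itself among them, had an r with Plpp1 at or below that of Sgpp1, or 0.0616%. The pair had the strongest r of the 28, so this low share is no separate evidence. The r values are correlations over hearts that share library scaling, and genes are not independent replicates.

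Sgpl1 ran with Plpp2 (r = 0.85, permutation p = 0.0028, adjusted p = 0.0261, rho = 0.77, permutation p = 0.0125, adjusted p = 0.0885) and against Plpp1 (r = -0.86, permutation p = 0.00172, adjusted p = 0.0241, rho = -0.77, permutation p = 0.0126, adjusted p = 0.0885). Without S1Pless replicate 5 these r values were 0.65 and -0.71. Without the 2 hearts farthest from the median Sgpl1 level they were 0.76 and -0.68, and among the 7 hearts of title series 38 they were 0.61 and -0.69. Plpp1 and Plpp2 had r = -0.82 (permutation p = 0.00744, adjusted p = 0.0417, rho = -0.59, permutation p = 0.0815, adjusted p = 0.38), which was -0.52 without S1Pless replicate 5 and -0.68 without the 2 hearts farthest from the median Plpp1 level, and -0.43 in title series 38.

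Sphk2 and Plpp3 were the last pair past the threshold, with r = 0.78 (permutation p = 0.00695, adjusted p = 0.0417) and rho = 0.72 (permutation p = 0.0234, adjusted p = 0.131). With group means removed r was 0.57, and without the 2 hearts farthest from the median Sphk2 level it was 0.65, and in title series 38 it was 0.85. The kinases Sphk1 and Sphk2 had r = 0.56 over all hearts (permutation p = 0.0906, adjusted p = 0.282) and 0.18 with group means removed.

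**Figure D4:**
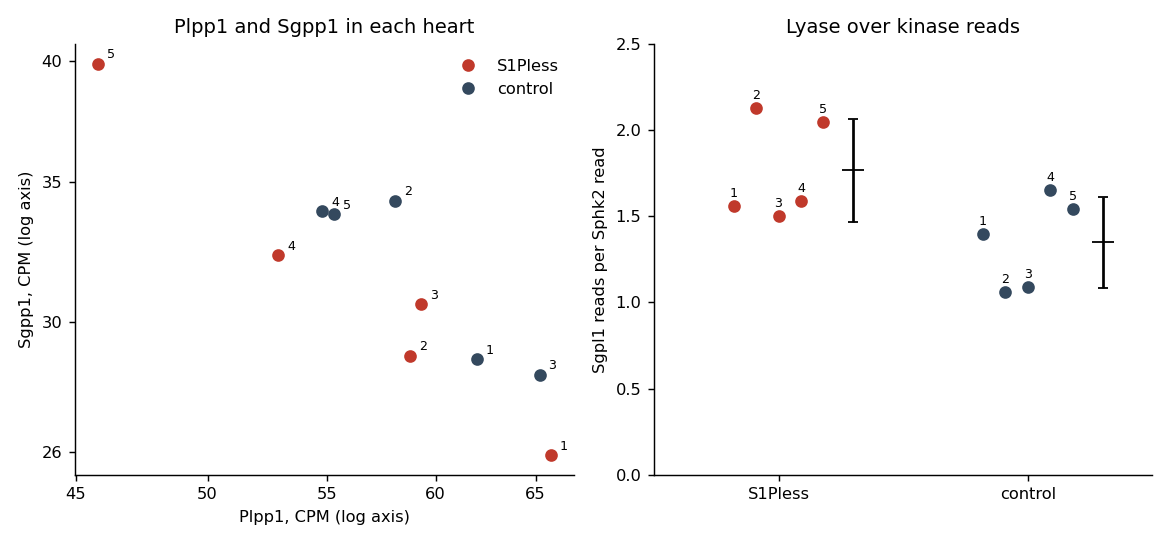
Left, Sgpp1 against Plpp1 in each heart in CPM (log axes), numbered by replicate; right, Sgpl1 reads per Sphk2 read in each heart with mean and SD (n = 5 each), S1Pless left of control. Sgpp1 is highest where Plpp1 is lowest, in S1Pless replicate 5, and S1Pless replicates 2 and 5 have the highest read ratios.

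The genes whose levels most resembled those of 3 members over the 10 hearts were sought among 10066 genes with at least 5 CPM, as a description. For Sphk1 these were Zfp612 (r = 0.889, rho = 0.891), Prkd1 (r = 0.877, rho = 0.867) and the vascular growth factor receptor gene Flt1 (r = 0.877, rho = 0.842). For Sphk2 they were Ppp1r3d (r = 0.917, rho = 0.83), the phospholipid acyltransferase gene Mboat7 (r = 0.913, rho = 0.867) and Btbd6 (r = 0.876, rho = 0.891). For Plpp3 they were the mitochondrial carrier gene Slc25a29 (r = 0.953, rho = 0.903), the zinc transporter gene Slc39a13 (r = 0.881, rho = 0.939) and the chloride transporter gene Clcn4 (r = 0.864, rho = 0.903). Part of each r comes from the group difference: with group means removed the values ran from 0.726 for Clcn4 to 0.927 for Slc25a29. These genes were picked as the highest among 10066 over only 10 hearts, so a high r alone shows no link. No test was made, and Sphk1 rests on 8 to 27 reads per heart.

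Of 28 further genes of the pathway, 25 have a row, and 19 of these were tested. None was called in edgeR's test, limma-voom or DESeq2. In edgeR 2 of the 19, Cers5 and Plpp7, had an unadjusted p below 0.05, where 19.9% of all tested genes had such a p. The median log2 fold change of the 19 was 0.06, with 13 above and 6 below 0. Plpp4, Etnppl and Apoa1 were not analysed here.

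Cers5, a ceramide synthase that can return sphingosine to ceramide, had 33.9 ± 1.7 CPM in S1Pless hearts and 29.9 ± 1.22 CPM in controls (SD, n = 5 each). Its log2 fold change was 0.18 ± 0.07 (SE, edgeR adjusted p = 0.183). The groups did not overlap, which held for 6.35% of all tested genes. With library totals alone Cers5 was called, at 0.31 with an adjusted p of 0.0224. Plpp7, a member of the phosphatase family for which no enzymatic activity is known, had 26.5 ± 3.34 CPM in S1Pless hearts and 32.1 ± 3.2 CPM in controls, a log2 fold change of -0.28 ± 0.1 (edgeR adjusted p = 0.157).

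By role, the ceramidases that supply sphingosine, Asah1, Asah2, Acer2 and Acer3, had log2 fold changes of 0.17, 0.16, 0.02 and 0.15, and none passed (edgeR adjusted p from 0.349 to 0.958). Mfsd2b, the S1P exporter of red blood cells and platelets, had 2.45 ± 0.249 CPM in S1Pless hearts and 2.34 ± 0.74 CPM in controls. Red cell markers beside it, 5 of 7 of them tested and none called, summed to 74.1 to 172 CPM in S1Pless hearts and 32.3 to 143 CPM in controls. The ATP-driven lipid transporters Abca1, Abcb1a, Abcc1 and Abcg2, some of which have been linked to S1P release, had log2 fold changes from -0.03 to 0.23. Aldh3a2, which oxidises the fatty aldehyde that the lyase releases, had 0.11 ± 0.08.

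Sgpp2, the inducible relative of Sgpp1, had too few reads to be tested and was looked at after its values were seen. It had 6 reads over all S1Pless libraries and 18 over all control libraries, at most 6 in a library. In reads, S1Pless replicates 1 and 4 had 2 each, as did control replicates 2 and 5, so the groups met. In CPM all S1Pless hearts lay below all controls, by 0.101 against 0.108 CPM at the nearest, a gap between equal counts that comes from library scaling. With no filter on low counts the log2 fold change was -1.66 ± 0.62 (SE, edgeR adjusted p = 0.169).

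**Figure D5:**
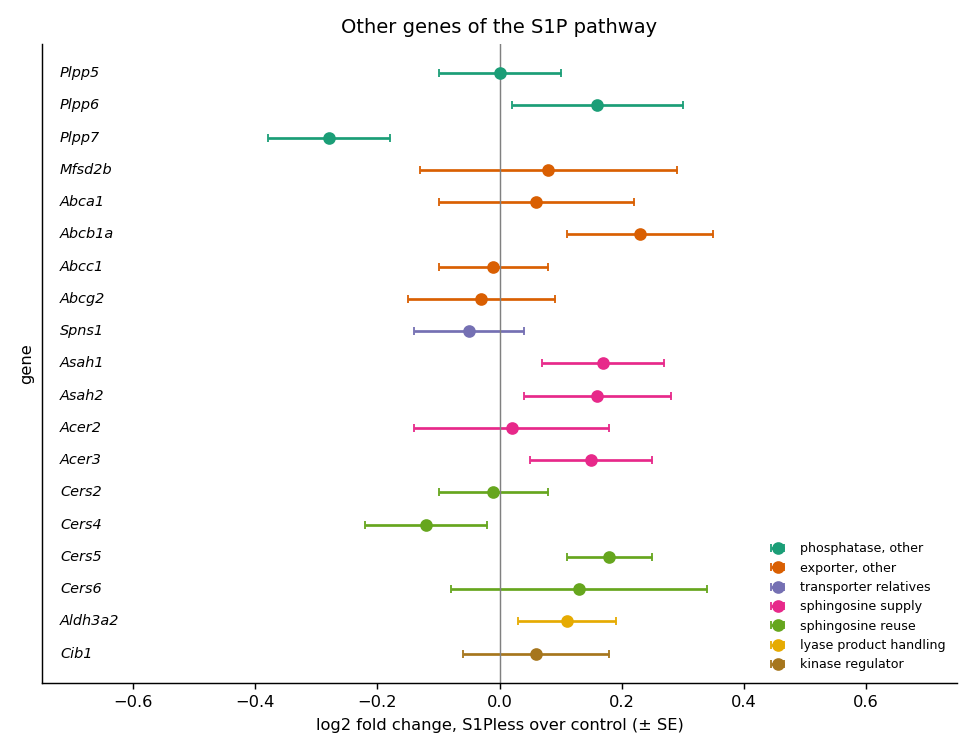
Log2 fold change of S1Pless over control with SE for the 19 tested genes of the wider pathway, coloured by role. Cers5 at 0.18 and Plpp7 at -0.28 have the smallest p-values on each side, and none of the 19 passed.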

How the data were processed

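RNA was measured in 10 hearts, 5 S1Pless and 5 control. Illumina stranded mRNA libraries were made from TRIzol and RNeasy extracts, per the labels' protocols. The authors deposited raw read counts per Ensembl gene. Per the submitters' processing notes, STAR 2.7.8a, featureCounts 2.0.1 and the GRCm39 build were used; annotation release, strand setting and treatment of multiply mapped reads are not given there. No column was left unused. Symbols came from a table of Ensembl identifiers (20 unmatched) and exon lengths from GENCODE M21, on another build. The only coordinates printed are those of RefSeq windows, which are not on the build used for counting.

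Hearts were grouped by genotype label and numbered in accession order, and the labels pair no animals. Nothing in them says which hearts were processed together, so p-values measure the spread between these samples. The running numbers that end the column names, of unstated meaning, place all controls before all S1Pless hearts. Any effect of that order cannot be told apart from genotype. Every one of 20 same-group pairs of libraries differed by more than counting noise (lowest chi-square over degrees of freedom 10.5). All 15341 genes entered filterByExpr (minimum count 10), and 12992 were tested with edgeR 4.0.16 (TMM, glmQLFit with robust estimation, glmQLFTest, two-sided, R 4.3.3) with Benjamini-Hochberg adjustment over all of them and a threshold of 0.05. The biological coefficient of variation was 15.2%. Standard errors are the log2 fold change over the square root of F, and 95% intervals are 1.96 SE to each side. Correlations used log2 CPM (prior count 2) and 100000 two-sided permutations (scipy 1.17.1). The fit was tested on simulated data. Alternatives were RLE and upper-quartile factors, library totals, DESeq2 1.42.0, limma-voom (limma 3.58.1) with sample weights, no filter, 1 CPM in 5 libraries, the title series (38 or 44), a block of neighbouring title numbers, and leaving out each heart.

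The members, gene lists and alternatives were chosen with earlier results of these data known. Named genes are all members, the wider pathway genes with the smallest p in each direction, and the 3 genes most like Sphk1, Sphk2 and Plpp3. The ratio of Sgpl1 to Sphk2 and Sgpp2 were chosen after their values were seen.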

Additional observations from a re-analysis of the deposited data

Results flagged for a closer look

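Plpp2 in S1Pless replicate 5, at 3.51 CPM, stood apart from the other S1Pless hearts, which had 1.68 to 2.1 CPM. The gap to the nearest of them was 0.771 of the group's range, above Dixon's 95% critical value of 0.71 for 5 samples. In all, 36 groups of values were examined, and chance alone flags about 1 group in 20. The log2 fold change of Plpp2 was 0.27 without this heart and 0.5 with it.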

How the results depend on the processing

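No member was called in the edgeR and limma-voom fits, and DESeq2 called 1, Plpp3. Of the wider pathway genes library totals alone called 1, Cers5. Over all genes 483 calls (442 higher and 41 lower) became 1433 with library totals alone (1420 and 13) and 1028 with DESeq2 (764 and 264). With the block of neighbouring title numbers they became 88 (80 and 8). In that fit control replicates 3 and 4 shared a block with no S1Pless heart and did not enter the group difference. When a heart was left out, calls ran from 126, without control replicate 3, to 589, without control replicate 1. Counts without control replicates 2, 4 and 5 or S1Pless replicates 1 and 5 were 278, 131, 237, 288 and 239. The cause of these shifts was not tested. Sphk1, Sphk2, Sgpl1, Plpp2 and Plpp3 kept their sign in every fit that gave a value, and Sphk1 was not tested in the fit that asked for 1 CPM in 5 libraries. The sign turned for 3 genes: with library totals alone for Sgpp1 (0.12), Plpp1 (0.07) and Spns2 (0.13), and for Spns2 also with limma-voom and with the title series (0.01 each). With a heart left out, Sgpp1 ran from -0.12 to 0.05 and Spns2 from -0.07 to 0.05. Depth limits Sphk1, Plpp2, Sgpp2, Apom and Mfsd2a most. Lengths from the longest transcript in place of all exons raised Sgpp1 to 9.58 CPM per kilobase in controls, against 5.64.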
